A study of Danio rerio with 6 samples.

Results

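Genes of motile cilia and the sperm flagellum were examined in RNA-seq data from juvenile zebrafish gonads lacking or carrying *eif4e1b*. The set was chosen by gene symbol from 40 names: axonemal dynein, radial spoke, central pair, assembly and tektin genes, together with their transcriptional regulators. Of these, 38 were matched to 39 of the 32520 gene IDs in the count tables, since *dnal1* had 2 IDs; *foxj1a* and *dnaaf5* were not matched and were not analysed here. The samples were 3 of *tg(ziwi:GFP), eif4e1b -/-* gonads and 3 of *tg(ziwi:GFP), eif4e1b +/+* gonads from sibling juveniles, each a pool of 3 gonads that were chosen for high GFP and labelled as female ovary. In both genotypes the *ziwi* promoter drives GFP in germ cells. The mutants carry small CRISPR deletions, and which allele was used for these samples was not given. The p-values measure the spread between these pooled samples.

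Motile cilia and sperm tails share an axoneme of doublet microtubules surrounding a central pair. Dynein motors built into outer and inner arms slide the doublets, and docking factors, radial spokes, the nexin-dynein regulatory complex and the central pair set where and when they pull. Dynein arms are put together in the cytoplasm by dedicated assembly factors. In vertebrates, Foxj1 and Rfx transcription factors switch on many of these genes. In fish the same genes are used by sperm and by ciliated cells of organs such as the kidney, and both uses are possible in dissected tissue. In bulk samples, more cells of a ciliated or flagellated type cannot be told apart from more RNA per cell.

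Total counts ran from 5539470 to 8233080 in the mutant samples and from 11771342 to 13362230 in the wild-type samples. *eif4e1b* (ENSDARG00000014565), which encodes an oocyte-enriched cap-binding protein, had 55, 9 and 24 counts in mutant replicates 1, 2 and 3, against 1391, 1116 and 1386 in wild-type replicates 1, 2 and 3 (log2 fold change -4.92, SE 0.55, adjusted p = 0.000601, quasi-likelihood test of edgeR, Benjamini-Hochberg adjusted over the 20091 genes tested). Values per sample below are counts per 1000000 counts, scaled with TMM factors (CPM), always in the order of replicates 1, 2 and 3. A log2 fold change is mutant over wild-type, and a gene was called at an adjusted p under 0.05 from that test. A library of each genotype stood apart from the others. In wild-type replicate 1, the summed CPM of 10 testis somatic markers was 339, against 46.5 and 46.6 in the other wild-type samples, while 22 oocyte markers summed to 17850, against 13810 and 16270. Of the 339 CPM, 205 came from *gsdf*, which is also counted among the ovarian somatic markers below. Mutant replicate 2 carried 118 CPM of the endoderm and kidney factor *hnf4a*, against 2.08 and 28.3 CPM in the other mutant samples. Results are therefore also given without each of these libraries.

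Most of the motile cilium genes were higher in mutant gonads. Of 35 gene IDs with enough reads to test, 22 were higher, 2 were lower and 11 did not pass, with a median log2 fold change of 2.41 against 0.23 over all genes tested. These figures pool 18 IDs that entered the test through the mutant samples, where 85.2% of all such genes were called higher, with 17 others. Of those 17, which passed the low-count filter in every wild-type sample, 6 were higher, 2 were lower and 9 did not pass. Changes were widespread in this comparison, in which 37.5% of all tested genes were called higher and 32.0% lower (41.1% and 18.6% with library totals in place of TMM factors, 49.0% and 19.9% with upper-quartile factors). Every mutant value lay above every wild-type value for 22 of the tested IDs and below for 3, where 39.8% of all tested genes were separated upward and 35.4% downward. Summed over the 39 IDs, the set reached 717, 372 and 1008 CPM in mutant samples, against 398, 279 and 287 CPM in wild-type samples, so that the sum of mutant replicate 2 lay below that of wild-type replicate 1.

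**Figure D1:**
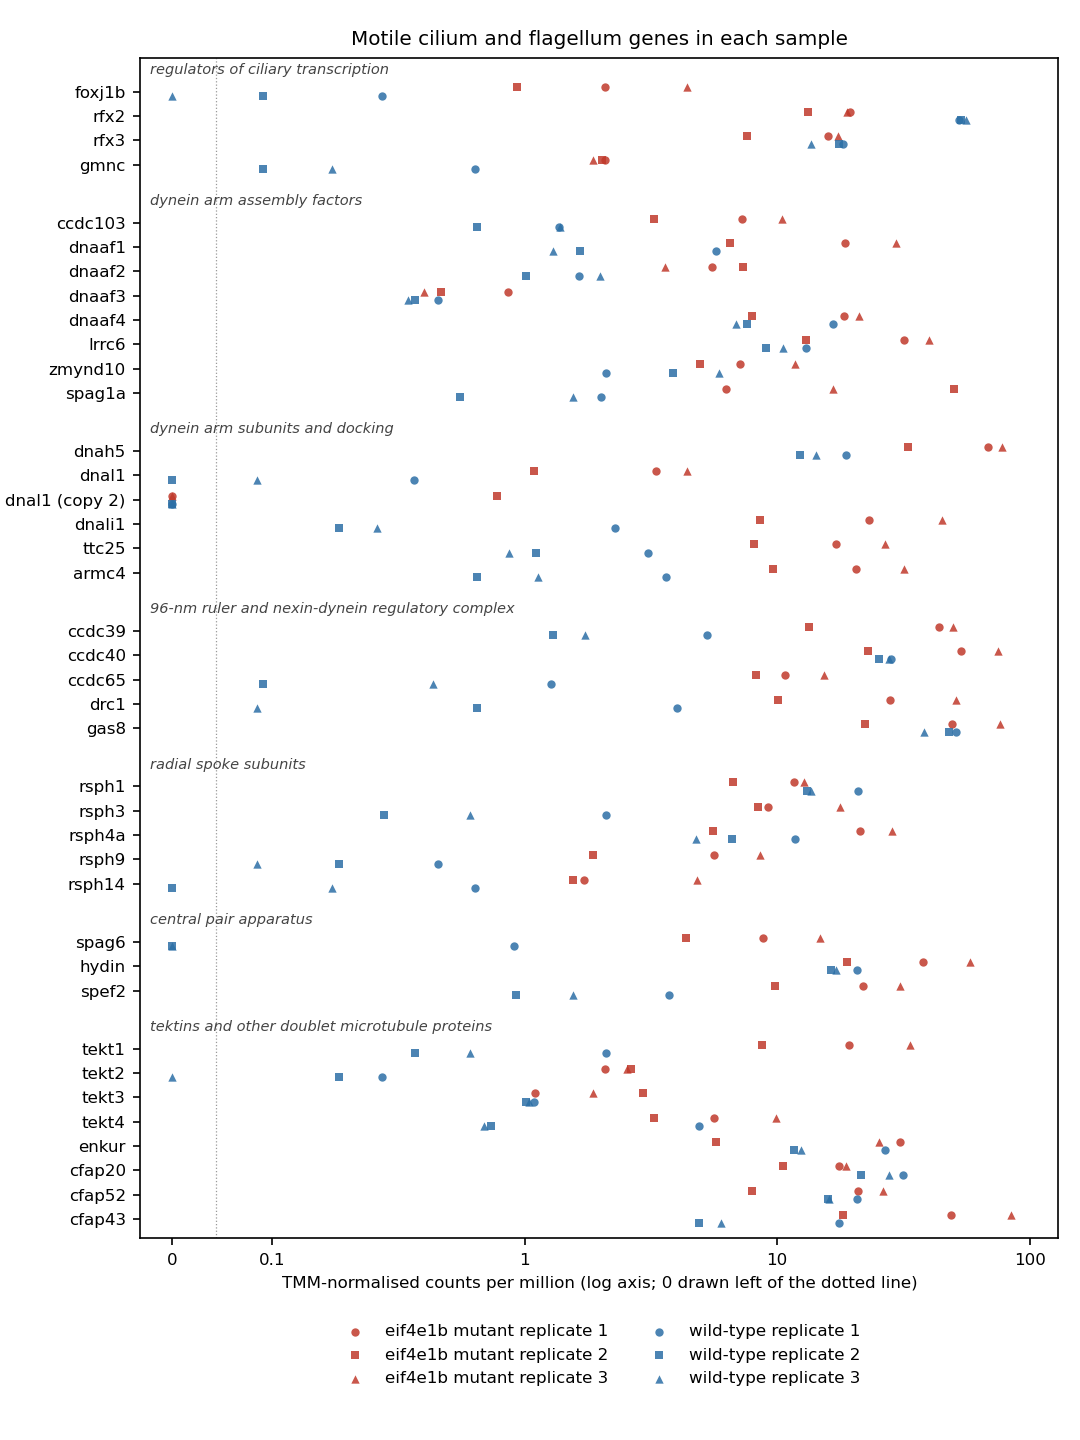
TMM-scaled CPM (log axis) of each of the 39 gene IDs in the 3 mutant samples (red) and the 3 wild-type samples (blue), grouped by role, with values of 0 drawn left of the dotted line. The 2 groups overlap for 12 IDs, and among the wild-type samples the circle of replicate 1 is mostly the highest.

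The number of calls went with the level in wild-type gonads. Of the 35 tested IDs, 18 passed the filter on low counts through the mutant samples and not through every wild-type sample. This route favours genes that are higher in the mutant, although *tekt4* entered on it with overlapping groups. Of the 18, 16 were called higher, where 85.2% of the 5161 genes that entered in that way were. The 17 IDs that also passed in every wild-type sample were mixed, with 6 higher, 2 lower and 9 not past the threshold. Among all 14558 genes of that kind, 21.4% were called higher and 44.1% lower. In the plot of fold change against wild-type level, most of the low members lie in the same upper band as other genes of their level.

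**Figure D2:**
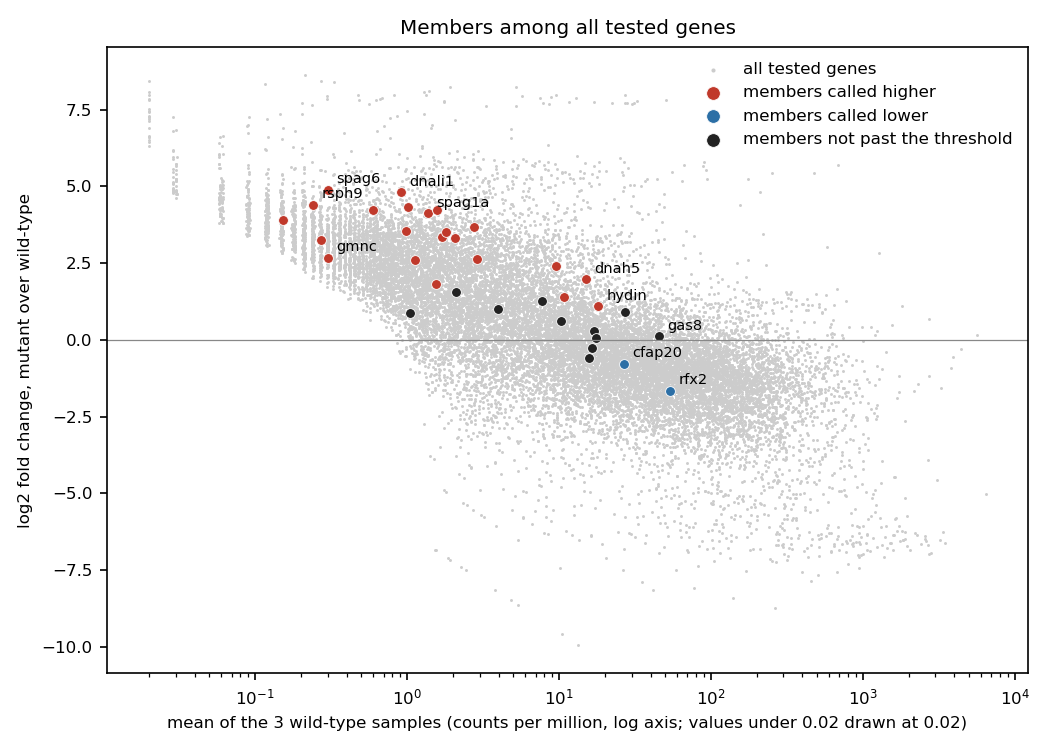
Log2 fold change of mutant over wild-type gonads (vertical) against mean wild-type level in CPM (log axis) for all 20091 tested genes (grey) and the 35 tested cilium and flagellum genes, coloured by call. The 9 members with a wild-type mean of up to 1.02 CPM have values of 2.68 or more, *tekt3* at 1.05 CPM has 0.89, and of those above 20 CPM *rfx2* and *cfap20* lie below 0, *gas8* at 0.11 and *ccdc40* at 0.90.

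The transcriptional regulators did not move together. *foxj1b*, which encodes a forkhead factor at the head of the motile cilium programme, had 17, 6 and 33 counts in mutant samples, against 3, 1 and 0 in wild-type samples. This was too few for the test; at equal depth the summed counts were 21.2 times higher in mutants (95% counting interval 7.82 to 80.4). *gmnc*, a geminin family member needed for multiciliated cells, had 2.08, 2.02 and 1.87 CPM in mutant samples, against 0.636, 0.0922 and 0.173 CPM in wild-type samples (log2 fold change 2.68, SE 0.65, adjusted p = 0.00957). It entered the test through the mutant samples, a route on which 85.2% of all genes were called higher. It was among the few members with nearly equal levels in all mutant samples. *rfx2*, which encodes an Rfx factor used in ciliated cells and spermatids, was lower, at 19.4, 13.2 and 18.9 CPM in mutant samples, against 52.6, 53.3 and 56.1 CPM in wild-type samples (log2 fold change -1.65, SE 0.21, adjusted p = 0.000928). No mutant sample came near the wild-type range of *rfx2*, and its wild-type values were close to each other. For *rfx3*, another Rfx factor, the groups overlapped (log2 fold change -0.27, SE 0.34, adjusted p = 0.509).

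Among the dynein arm assembly factors, 5 of the 7 tested genes were higher and none was lower, beside 37.5% and 32.0% of all tested genes. Of those called, *ccdc103*, *dnaaf2* and *spag1a* entered the test through the mutant samples, where 85.2% of all such genes were called higher. *dnaaf1*, a leucine-rich repeat factor of arm assembly, had 18.5, 6.52 and 29.5 CPM in mutant samples, against 5.72, 1.66 and 1.298 CPM in wild-type samples (log2 fold change 2.65, SE 0.76, adjusted p = 0.0183). The lowest mutant sample and the highest wild-type sample of *dnaaf1* almost met, and its call was lost without mutant replicate 3 (2.02), wild-type replicate 2 (2.31) or wild-type replicate 3 (2.24). *ccdc103*, whose product helps to anchor dynein arms, had 7.22, 3.26 and 10.4 CPM in mutant samples, against 1.36, 0.645 and 1.38 CPM in wild-type samples (log2 fold change 2.61, SE 0.55, adjusted p = 0.00581). *spag1a* stood out by its sample pattern: its values were 6.25, 50.3 and 16.7 CPM in mutant samples, against 2.00, 0.553 and 1.56 CPM in wild-type samples (log2 fold change 4.14, SE 0.88, adjusted p = 0.00581). Here mutant replicate 2, the lowest mutant sample for most of the set, was the highest, and without it the log2 fold change of *spag1a* was 3.06 (adjusted p = 0.00804). The HSP90 co-chaperone gene *dnaaf2* also rose (log2 fold change 1.81, SE 0.44), as did *lrrc6* (1.38, SE 0.42), for which mutant replicate 2 at 13.03 CPM all but equalled wild-type replicate 1 at 12.99 CPM. The call of *lrrc6*, an assembly factor gene, was lost without mutant replicate 1 (1.25) or 3 (0.93) or wild-type replicate 2 (1.21) or 3 (1.31). Values for *dnaaf4* (0.61, SE 0.49) and *zmynd10* (1.01, SE 0.50) did not pass, with overlapping samples. *dnaaf3* had 7, 3 and 3 counts in mutant samples, against 5, 4 and 4 in wild-type samples, too few to test, and a ratio at equal depth of 1.51 (0.646 to 3.54).

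All 4 tested genes of the dynein arms and their docking sites were higher, without overlap between groups. Among all tested genes, 37.5% were called higher and 39.8% were separated upward. Of the 4, only *dnah5* passed the low-count filter in both genotypes. The genes *dnali1*, *armc4* and *ttc25* entered through the mutant samples, a route on which 85.2% of all genes were called higher. *dnali1*, an inner arm light intermediate chain, had 23.0, 8.53 and 45.1 CPM in mutant samples, against 2.27, 0.184 and 0.260 CPM in wild-type samples (log2 fold change 4.80, SE 1.04, adjusted p = 0.00635). Among the wild-type samples, replicate 1 held most of the *dnali1* signal. The docking genes *armc4* and *ttc25* had the same order of samples within the mutants. *armc4* had 20.6, 9.62 and 31.9 CPM in mutant samples, against 3.63, 0.645 and 1.12 CPM in wild-type samples (log2 fold change 3.51, SE 0.74, adjusted p = 0.00563). For *ttc25* the values were 17.1, 8.07 and 26.7 CPM in mutant samples, against 3.09, 1.11 and 0.865 CPM in wild-type samples (log2 fold change 3.35, SE 0.65, adjusted p = 0.00426). In both genes, mutant replicate 3 was highest and mutant replicate 2 lowest. The outer arm heavy chain gene *dnah5* was detected in every sample, at 68.3, 32.9 and 78.0 CPM in mutants, against 18.8, 12.3 and 14.2 CPM in wild-type (log2 fold change 1.99, SE 0.36, adjusted p = 0.00331). *dnal1*, an outer arm light chain, was below the filter at 27, 7 and 33 counts in mutant samples, against 4, 0 and 1 in wild-type samples, a ratio of 20.3 at equal depth (8.26 to 64.4). The other ID carrying this symbol had 5 counts in mutant replicate 2 and none in the other samples; how reads were divided between the 2 IDs is not known.

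Of 5 tested genes of the ruler and nexin-dynein regulatory complex, 3 were higher and none was lower, beside 37.5% and 32.0% of all tested genes. The genes *drc1* and *ccdc65* entered the test through the mutant samples, where 85.2% of all such genes were called higher. In contrast, *ccdc39*, *ccdc40* and *gas8* passed the low-count filter in both genotypes. *drc1*, a base subunit of the complex, had 28.0, 10.1 and 51.2 CPM in mutant samples, against 3.996, 0.645 and 0.0865 CPM in wild-type samples (log2 fold change 4.23, SE 1.14, adjusted p = 0.0144), a call that was lost without wild-type replicate 2 (3.81). *ccdc65*, another subunit of the complex, had 10.8, 8.22 and 15.3 CPM in mutant samples, against 1.27, 0.0922 and 0.433 CPM in wild-type samples (log2 fold change 4.23, SE 0.74, adjusted p = 0.00283). *ccdc39*, which encodes 1 strand of the coiled-coil ruler along each doublet, had 43.8, 13.3 and 49.9 CPM in mutant samples, against 5.27, 1.29 and 1.73 CPM in wild-type samples (log2 fold change 3.69, SE 0.72, adjusted p = 0.00428). Its partner in the ruler, *ccdc40*, did not pass, with 53.6, 22.8 and 75.0 CPM in mutant samples, against 28.2, 25.3 and 27.7 CPM in wild-type samples (log2 fold change 0.90, SE 0.40, adjusted p = 0.0845). Mutant replicates 1 and 3 of *ccdc40* exceeded all wild-type samples, and mutant replicate 2 fell below them. *gas8*, a core subunit of the regulatory complex, also overlapped, at 49.5, 22.3 and 76.2 CPM in mutant samples, against 51.1, 48.1 and 38.0 CPM in wild-type samples (log2 fold change 0.11, SE 0.42, adjusted p = 0.825). Of its mutant samples, replicate 3 exceeded all wild-type samples, replicate 1 lay between them and replicate 2 below them.

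Radial spoke genes divided in the same manner, with 3 of 5 higher, beside 37.5% of all tested genes. This division followed the route past the low-count filter. The 3 higher genes entered through the mutant samples, where 85.2% of all such genes were called higher, while *rsph1* and *rsph4a* passed in both genotypes. *rsph9*, a spoke head gene, had 5.63, 1.86 and 8.54 CPM in mutant samples, against 0.454, 0.184 and 0.0865 CPM in wild-type samples (log2 fold change 4.41, SE 0.80, adjusted p = 0.00318). *rsph3*, a spoke stalk gene, had 9.18, 8.38 and 17.7 CPM in mutant samples, against 2.09, 0.276 and 0.606 CPM in wild-type samples (log2 fold change 3.55, SE 0.73, adjusted p = 0.00517). *rsph14* had 1.71, 1.55 and 4.802 CPM in mutant samples, against 0.636, 0 and 0.173 CPM in wild-type samples (log2 fold change 3.26, SE 0.96, adjusted p = 0.0203). None of these 3 genes overlapped between genotypes, where 39.8% of all tested genes were separated upward. The call of *rsph14* was lost without mutant replicate 3 (2.43) or wild-type replicate 3 (2.97). The spoke head genes *rsph4a* and *rsph1* did not pass: *rsph4a* had a log2 fold change of 1.26 (SE 0.62, adjusted p = 0.106). *rsph1* had 11.6, 6.67 and 12.8 CPM in mutant samples, against 20.8, 13.1 and 13.6 CPM in wild-type samples (log2 fold change -0.61, SE 0.34, adjusted p = 0.146), so every mutant value lay below every wild-type value although the test was not passed.

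All 3 central pair genes were higher, by very different amounts, beside 37.5% of all tested genes. Only *hydin* passed the low-count filter in both genotypes. The genes *spag6* and *spef2* entered through the mutant samples, a route on which 85.2% of all genes were called higher. *spag6*, a central pair armadillo-repeat gene, had 72, 28 and 111 counts in mutant samples, against 10, 0 and 0 counts in wild-type samples (8.82, 4.34 and 14.8 CPM, against 0.908, 0 and 0 CPM; log2 fold change 4.90, SE 1.17, adjusted p = 0.00922). All wild-type reads of *spag6* therefore came from replicate 1. Against the limit of 3 counts over wild-type replicates 2 and 3 together, the mutant mean of 9.32 CPM was at least 69.6-fold higher. *spef2*, a projection component needed for sperm tails in mice, had 21.9, 9.77 and 30.7 CPM in mutant samples, against 3.72, 0.922 and 1.56 CPM in wild-type samples (log2 fold change 3.32, SE 0.64, adjusted p = 0.00413). *hydin*, a giant central pair projection gene, had 38.0, 18.9 and 58.3 CPM in mutant samples, against 20.6, 16.4 and 17.0 CPM in wild-type samples (log2 fold change 1.09, SE 0.40, adjusted p = 0.0431). Mutant replicate 2 of *hydin* was below wild-type replicate 1, and its adjusted p was 0.073 without wild-type replicate 1. Its call was also lost without each other sample except mutant replicate 2, with log2 fold changes from 0.53 to 1.16 over these fits.

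Tektins, filament proteins inside the doublets, and other doublet proteins were the most varied. Of 8 tested genes 3 were higher and 1 was lower, beside 37.5% and 32.0% of all tested genes. The tektin genes *tekt1*, *tekt2*, *tekt3* and *tekt4* entered through the mutant samples, a route on which 85.2% of all genes were called higher. The other doublet genes passed the low-count filter in both genotypes. *tekt1* had 19.2, 8.69 and 33.6 CPM in mutant samples, against 2.09, 0.369 and 0.606 CPM in wild-type samples (log2 fold change 4.31, SE 0.78, adjusted p = 0.00323). *tekt2* had 2.08, 2.64 and 2.54 CPM in mutant samples, against 0.272, 0.184 and 0 CPM in wild-type samples (log2 fold change 3.89, SE 0.71, adjusted p = 0.00335), and like *gmnc* it was nearly even across mutants. *cfap43*, needed for sperm tails in mice, had 48.9, 18.1 and 84.4 CPM in mutant samples, against 17.6, 4.88 and 5.97 CPM in wild-type samples (log2 fold change 2.41, SE 0.70, adjusted p = 0.0197), with mutant replicate 2 next to wild-type replicate 1. This call was lost without mutant replicate 3 (1.73), wild-type replicate 2 (2.04) or wild-type replicate 3 (2.11). *tekt4* turned on wild-type replicate 1: it had 5.63, 3.26 and 9.87 CPM in mutant samples, against 4.90, 0.737 and 0.692 CPM in wild-type samples. Its log2 fold change was 1.57 (SE 0.85, adjusted p = 0.137) with all samples and 3.07 (SE 0.60, adjusted p = 0.00688) without that library. *tekt3* (log2 fold change 0.89, SE 0.46) and the genes of the doublet proteins enkurin, *enkur* (0.28, SE 0.62), and *cfap52* (0.06, SE 0.42) did not pass. *cfap20*, a doublet protein also present in non-motile cilia, was lower, at 17.6, 10.5 and 18.8 CPM in mutant samples, against 31.4, 21.4 and 27.7 CPM in wild-type samples (log2 fold change -0.77, SE 0.29, adjusted p = 0.0462). The groups of *cfap20* did not overlap, but its call was lost without wild-type replicate 1 (adjusted p = 0.0897), without mutant replicate 1 or 2 or wild-type replicate 3 (-0.90 to -0.53), and with library totals (-0.27) or upper-quartile factors (-0.09).

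**Figure D3:**
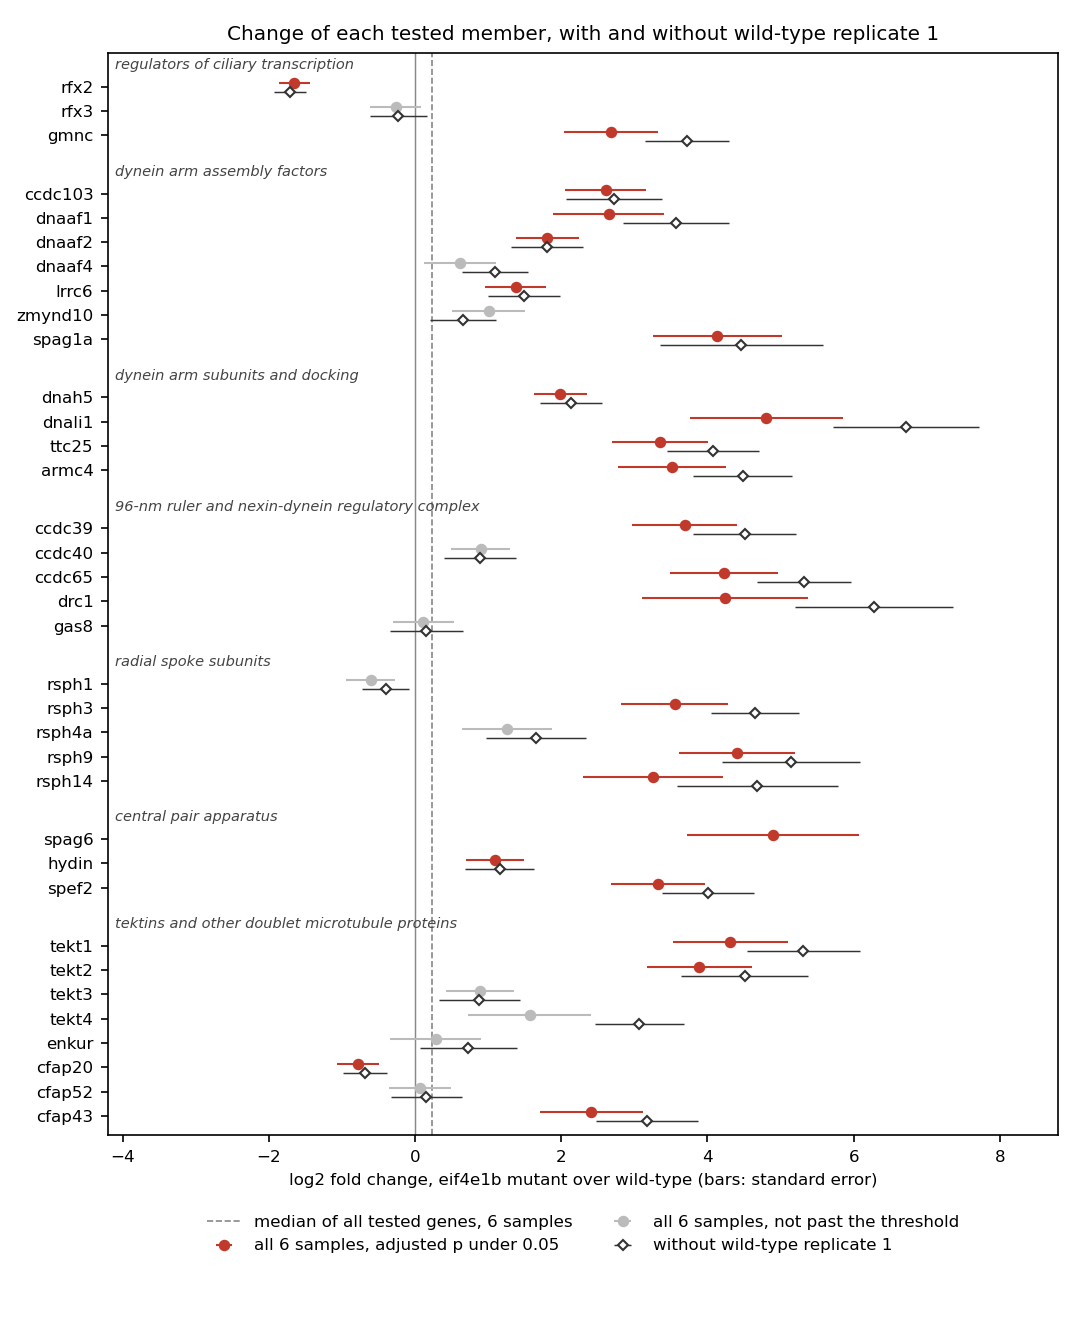
Log2 fold change of mutant over wild-type gonads with its standard error for the 35 tested IDs, from all 6 samples (filled) and without wild-type replicate 1 (open diamonds). The open diamonds of *dnali1* and *drc1* lie furthest right of their filled points, *rfx2* lies at -1.65, and *spag6* has no diamond because both remaining wild-type samples hold no read of it.

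The members shared a sample pattern. Wild-type replicate 1 was the highest wild-type sample for 31 of the 35 tested IDs, where it was highest for 52.2% of all tested genes. Mutant replicate 2 was the lowest mutant sample for 30 of them, against 43.0% of all tested genes, and mutant replicate 3 the highest for 28, against 27.0%. For the members called higher, these counts were 20, 18 and 18 of 22. The shares among all 7528 genes called higher were 63.7%, 35.3% and 26.3%. Among the 22 members called higher, the level in wild-type replicate 1 had a median of 17.8% of the mutant mean, and the mean of the other wild-type replicates had a median of 4.30%. Without wild-type replicate 1, 24 of 37 tested IDs were higher and 1 was lower, beside 37.4% and 30.6% of 20890 genes, and the members' median log2 fold change was 3.17 against 0.40 over all genes. *foxj1b* and *dnal1* then entered the test through their mutant values, with 1 count each over both remaining wild-type samples, so that their calls follow from how they entered, while *hydin* and *cfap20* were no longer called. Without mutant replicate 2, 26 of 37 tested IDs were higher and 1 was lower, beside 35.8% and 31.5% of 21164 genes. The members' median was then 2.84, against 0.29 over all genes. These medians, like that of all samples, were not split by the route past the low-count filter.

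Markers of other cells also differed between genotypes, in a comparison where 37.5% of all tested genes were called higher and 32.0% lower. Of 9 tested testis somatic markers 8 were higher. Of the 6 that passed the low-count filter in every wild-type sample, 5 were higher, beside 21.4% of all such genes. All 3 that entered through the mutant samples were higher, beside 85.2% of all such genes. The list summed to 1959, 1230 and 1656 CPM in mutant samples, against 339, 46.5 and 46.6 CPM in wild-type samples. Much of these sums came from *gsdf*, which is also in the ovarian somatic list. It had 1009, 654 and 747 CPM in mutant samples, against 205, 12.7 and 15.75 CPM in wild-type samples. *amh*, a Sertoli cell hormone gene, had 524, 359 and 473 CPM in mutant samples, against 56.9, 1.94 and 2.34 CPM in wild-type samples (log2 fold change 4.47, SE 1.37, adjusted p = 0.0237). Oocyte markers went the other way, with 21 of 22 lower and sums of 594, 122 and 163 CPM in mutant samples, against 17850, 13810 and 16270 CPM in wild-type samples. Kidney tubule and glomerulus markers were higher for 9 and lower for 1 of 15 tested. Of the 6 that passed the low-count filter in every wild-type sample, 4 were higher and 1 was lower, beside 21.4% and 44.1% of all such genes. Of the 7 that entered through the mutant samples, 5 were higher, beside 85.2% of all such genes. The list summed to 322, 438 and 301 CPM in mutant samples, against 102, 43.0 and 58.4 CPM in wild-type samples. The podocyte and epithelial gene *podxl* alone gave 214 to 259.5 CPM in mutant samples, against 20.7 to 63.5 CPM in wild-type samples. Among tubule genes, the transporter gene *slc5a2* (log2 fold change 4.05, SE 0.74), the nephron factor *pax8* (3.35, SE 0.73) and the receptor gene *cubn* (1.94, SE 0.50) were higher, while *umod* and *slc26a1* were at 0 in at least 1 sample of each genotype. In wild-type samples *slc5a2* had 2, 3 and 3 counts and *pax8* 6, 1 and 5 counts, too few to pass the low-count filter there. *cdh17*, another tubule gene, was higher (2.61, SE 0.31) and reached 8.57 to 11.8 CPM in mutant samples, against 1.47 to 1.82 CPM in wild-type samples. The tubule gene *clcnk* was lower (-2.10, SE 0.42), at 1.73 to 3.41 CPM in mutant samples, against 7.465 to 15.35 CPM in wild-type samples. Further tubule genes, among them *slc12a3*, *slc5a12* and *slc9a3.2*, did not pass. For ovarian somatic markers, 13 of 17 listed symbols were matched, and *foxl2a*, *foxl2b*, *cyp19a1a* and *amhr2* were not. The matched markers were higher for 11 and lower for 1 of 13. Of the 11 that passed the low-count filter in every wild-type sample, 9 were higher and 1 was lower. The list summed to 5179, 6064 and 4111 CPM in mutant samples, against 908, 225 and 323 CPM in wild-type samples. Among the wild-type samples, replicate 1 had the highest sum of the cilium genes and of the testis, ovarian somatic, kidney and oocyte lists. Within the mutants, the kidney and ovarian somatic sums were highest in replicate 2, where the sum of the cilium genes was lowest. The testis and oocyte sums were lowest there too. Of the kidney sum, *hnf4a* gave 118 CPM in replicate 2, against 2.08 and 28.3 CPM in replicates 1 and 3. Of the ovarian somatic sum, *krt8* gave 2072, 3302 and 1913 CPM and *krt18a.1* 391, 1139 and 496 CPM. Another large part was *col1a1a*, at 1505, 728 and 742.5 CPM. Gene by gene, mutant replicate 2 was the lowest mutant sample for 7 of 13 ovarian somatic and 3 of 20 kidney IDs. The part of each cell type in the change of the cilium genes was not tested.

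The other axoneme genes showed how far the pattern extended. Of 20 further axonemal dynein and assembly genes tested, 12 were higher and none was lower, with a median log2 fold change of 1.90. That is 60% higher, beside 37.5% of all tested genes, and of the 13 that passed the low-count filter in every wild-type sample 6 were higher, beside 21.4% of all such genes. The docking gene *odad3* had 23.4, 8.999 and 35.2 CPM in mutant samples, against 1.73, 0.461 and 0.173 CPM in wild-type samples (log2 fold change 4.82, SE 0.86, adjusted p = 0.00306). Of 45 further spoke, central pair and doublet genes, 34 were higher and 2 were lower, with a median of 2.34, and without mutant replicate 3 or wild-type replicate 3 the number higher was 21. The share higher was 75.6%, and of the 26 that passed the filter in every wild-type sample 16 were higher and 2 lower, while 18 of the 19 that entered through the mutant samples alone were higher, beside 85.2% of all such genes. *cfap77*, a doublet gene, had 8.33, 3.72 and 8.40 CPM in mutant samples, against 0.363, 0 and 0.0865 CPM in wild-type samples (log2 fold change 5.39, SE 0.83, adjusted p = 0.00179). The exceptions were *spef1*, which encodes a central pair microtubule-binding protein, and *mns1*, which encodes a protein inside the doublets. *spef1* was lower at 11.02, 2.48 and 12.8 CPM in mutant samples, against 66.8, 44.9 and 47.2 CPM in wild-type samples (log2 fold change -2.59, SE 0.56, adjusted p = 0.00631), and *mns1* was lower by a log2 fold change of -2.04 (SE 0.43, adjusted p = 0.00592). Both were well expressed in wild-type gonads and their groups did not overlap, where 35.4% of all tested genes were separated downward.

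Genes for building any cilium, motile or not, were called in both directions, and most of the transport genes did not pass. Of 23 intraflagellar transport genes, 3 were higher and 4 were lower, smaller shares than the 37.5% and 32.0% of all tested genes. The median log2 fold change of the list was -0.08. The low-count filter was passed in every wild-type sample by 21 of them. Of these, 2 were higher and 4 were lower, beside 21.4% and 44.1% of all such genes. For the whole list, none was lower with library totals, while with upper-quartile factors 9 were higher and 1 was lower. Leaving out mutant replicate 2 gave 7 higher and 2 lower, leaving out wild-type replicate 2 or 3 gave 1 higher and 2 lower, and 2 were lower without mutant replicate 1. *ift88*, a core transport subunit, was higher (1.33, SE 0.32) and *ift27* was lower (-1.40, SE 0.22; not called with library totals, -0.95). The summed level of this list was 730, 443 and 938 CPM in mutant samples, against 713, 732 and 718 CPM in wild-type samples, so that the wild-type sums were nearly equal and mutant replicate 2 lay below them all. Of 11 genes of multiciliation and centriole amplification, 2 were higher (1 without mutant replicate 3, 4 with library totals and 6 with upper-quartile factors) and 4 were lower. With all samples and TMM factors these shares were 18.2% and 36.4%, beside 37.5% and 32.0% of all tested genes. Of the 8 that passed the low-count filter in every wild-type sample, 1 was higher and 4 were lower, beside 21.4% and 44.1% of all such genes. Of the 3 that entered through the mutant samples, *ccdc78* among them, 1 was higher, beside 85.2% of all such genes. The deuterosome gene *ccdc78* was higher (3.44, SE 0.94, adjusted p = 0.0151), whereas the centriole duplication genes *stil* (-3.54, SE 0.29), *sass6* (-3.00, SE 0.37) and *cep152* (-2.81, SE 0.31) and the cell cycle factor *e2f5* (-2.30, SE 0.40) were lower. These duplication genes are also used by dividing cells.

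**Figure D4:**
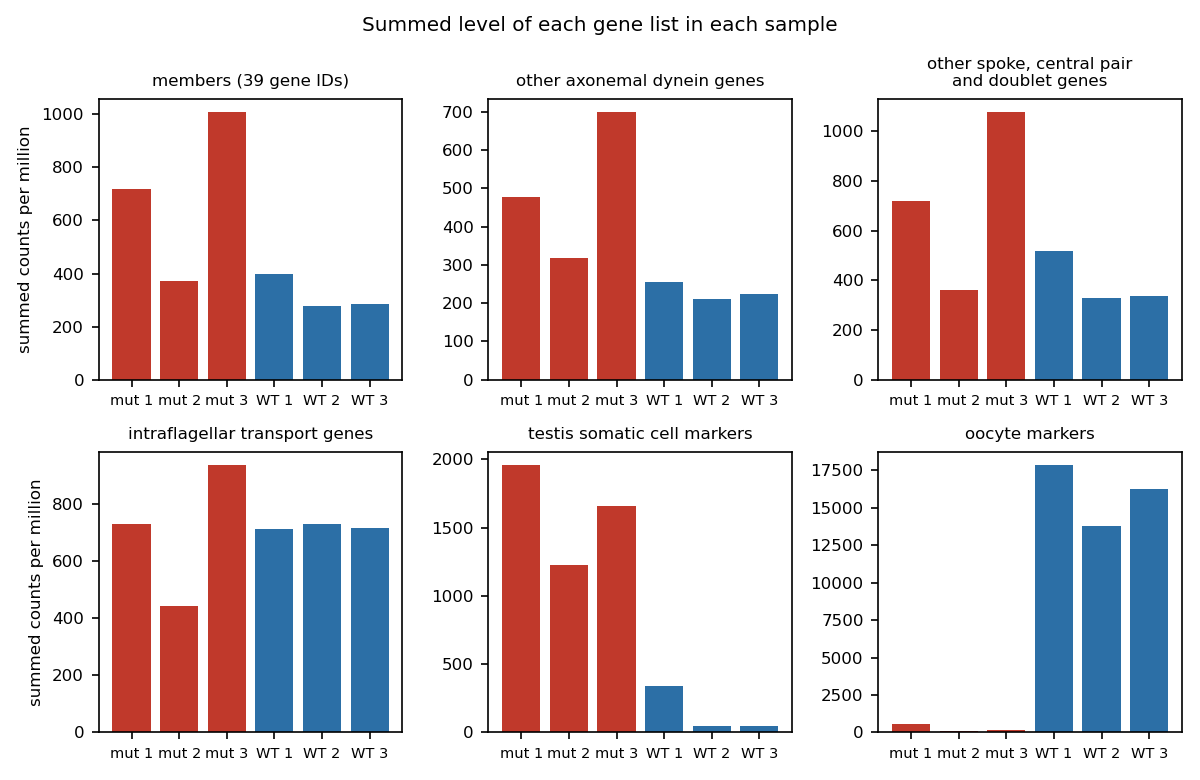
Summed CPM of 6 gene lists in the 3 mutant samples (red, left) and the 3 wild-type samples (blue, right), each panel with its own axis from 0. Axoneme lists are highest in mutant replicates 1 and 3, testis somatic markers are lowest in wild-type replicates 2 and 3 at 46.5 and 46.6, and oocyte markers stay at or below 594 in mutant samples.

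Other genes of sperm function were mixed, with 10 higher and 4 lower of 27 tested (2 lower with library totals, 1 with upper-quartile factors) and a median log2 fold change of 0.48. Of 59 listed symbols only 31 gave a separate gene ID, and *izumo1* and the *catsper* genes were not among them. The shares below cover only the genes that were left. The share higher, 37.0%, was close to the 37.5% of all tested genes, and the share lower, 14.8%, was under their 32.0%. Of the 20 that passed the low-count filter in every wild-type sample, 4 were higher and 4 lower, beside 21.4% and 44.1% of all such genes. All 6 that entered through the mutant samples were higher, beside 85.2% of all such genes. Among these 6 were the fertilisation genes *dcst1* and *dcst2*. *dcst1* had 4.41, 4.03 and 10.4 CPM in mutant samples, against 0.908, 0 and 0.0865 CPM in wild-type samples (log2 fold change 4.20, SE 1.03, adjusted p = 0.0103). *dcst2* had 9.92, 2.48 and 7.87 CPM in mutant samples, against 0.908, 0.0922 and 0 CPM in wild-type samples (log2 fold change 4.30, SE 1.08, adjusted p = 0.0111). Both were highest among wild-type samples in replicate 1, as most of the axoneme members were. *spata18* was lower, with 2.204, 3.10 and 1.87 CPM in mutant samples, against 29.7, 11.9 and 13.41 CPM in wild-type samples (log2 fold change -2.94, SE 0.47, adjusted p = 0.00197), and so was the outer dense fibre and centrosome gene *odf2b* (-1.06, SE 0.25), which was not called with library totals (-0.55) or upper-quartile factors (-0.37).

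Reads of overlapping genes may be mixed in some of these counts, since the strand setting of the counting is not known. Of the 35 members found in the RefSeq annotation, 14 overlapped another gene, among them *dnali1* with *gnl2*, *drc1* with *paplnb*, *armc4* with *mpp7a*, *ttc25* with *dnajc7*, *spag1a* with *parp10* and *rfx2* with *fcho1*. *spag6*, *tekt1*, *rsph3*, *rsph9*, *ccdc39*, *gmnc* and *foxj1b* overlapped no other gene there.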

How the data were processed

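RNA was purified by the authors from gonads with RNeasy columns, and a sequencing provider made and sequenced stranded, ribosomal RNA-depleted libraries. Reads were aligned to GRCz11. Their processing notes name Trim Galore 0.5.0, Bowtie2 2.3.4.1, featureCounts, Subread 1.6.2, DESeq2 1.18.1 and R 3.4.1, with no role for each. The deposited values are raw counts per gene, 1 table per sample with 32520 Ensembl IDs, without normalization. The annotation release, the strand setting and the handling of reads with several matches are not given in the sources used here.

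The 40 symbols were matched through a table of gene names (34), RefSeq synonyms (3) and a current symbol (1). Symbols that gave a separate gene ID were 21 of 34 for further dynein, 47 of 62 for further spoke and doublet, 22 of 30 for transport and 13 of 21 for multiciliation genes. Among markers they were 10 of 12 for testis somatic, 22 of 24 for oocyte and 20 of 26 for kidney genes. RefSeq gene order came from another assembly, GRCz12tu, and was used for names and overlaps only. Counts were fitted with edgeR 4.0.16 in R 4.3.3 (TMM factors, default low-count filter with a minimum count of 10 and a minimum total of 15, two-sided quasi-likelihood test, genotype as the term), leaving 20091 genes, and p-values were adjusted by Benjamini-Hochberg over all of them with a threshold of 0.05. CPM is the count divided by the TMM-scaled library size. Each SE was derived from the test, as the absolute log2 fold change divided by the square root of its F statistic. Ratios of genes below the filter have exact 95% intervals, which like the limit of 3 counts cover counting error only. Replicates differed by far more than sampling noise (11.5 to 168 for chi-square over its degrees of freedom). The code was tested on simulated data. Tables and figures used python 3.11.15, pandas 2.3.3 and matplotlib 3.10.9.

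Alternatives were DESeq2 1.42.0, limma 3.58.1 (voom), other scalings and filters, a replicate block, and leaving out each sample. The text accounts for every member, with values per sample for called members whose log2 fold change was 2 or more in size, those not tested, and those whose call or sample pattern is described; from other lists it names at most 4 called genes per direction, those with the largest absolute log2 fold change, and marker genes chosen after their values were seen. The members and lists were chosen with earlier results of these data known.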

Additional observations from a re-analysis of the deposited data

How the results depend on the processing

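Of the 24 members called, 22 had a value in all 14 alternatives, and 15 of these kept their call in every one; *gmnc* and *tekt2* fell under the filter of a mean of at least 10 counts and kept their call in the others. Of the 24, 22 kept it under the 4 that changed only the test or the scaling. Calls were lost for *hydin* in 9 alternatives, *cfap20* in 8, *lrrc6* in 4, *cfap43* and *dnaaf1* in 3, *rsph14* in 2 and *drc1* in 1. Leaving out 1 sample gave 18 to 26 members higher and 1 to 2 lower, and 1 lower was also found with library totals, upper-quartile factors, no filter and a mean of at least 10 counts. Scaling shifted all genes: their median log2 fold change was 0.23 with TMM, 0.65 with library totals and 0.92 with upper-quartile factors, and the higher share of called genes was 53.9%, 68.8% and 71.1%. In these scalings intraflagellar transport genes were lower in 0 (library totals) and 1 (upper-quartile) and higher in 9 (upper-quartile), multiciliation genes were higher in 4 (library totals) and 6 (upper-quartile), and sperm function genes were lower in 2 (library totals) and 1 (upper-quartile). Leaving out 1 sample gave 1 to 7 transport genes higher and 2 to 5 lower, 1 to 3 multiciliation genes higher, 21 to 37 further spoke and doublet genes higher and 0 to 1 further dynein genes lower. Signs turned only for genes that were not called. With upper-quartile factors *rfx3* was 0.417 and *rsph1* 0.078, and with library totals *rfx3* was 0.253. DESeq2 gave -0.031 for *gas8* and -0.069 for *cfap52*, and voom gave -0.029 and -0.058. Leaving out 1 sample gave -0.615 to 0.035 for *rfx3*, -0.477 to 0.465 for *gas8*, -0.154 to 0.768 for *enkur* and -0.401 to 0.439 for *cfap52*. The causes were not tested.

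Replicate numbers did not pair the samples, as deviations of same-numbered samples correlated at 0.117, -0.195 and -0.052 over genes. With the replicate number as a block, 21 members were higher and 2 lower, *hydin* was not called (0.96, adjusted p = 0.0653), *gas8* was -0.044, *cfap52* was -0.079, and 6625 genes were higher and 5887 lower overall.

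Mutant libraries held fewer reads than wild-type ones, so 3 counts stood for 0.367 to 0.465 CPM in mutant samples and for 0.260 to 0.276 CPM in wild-type samples, and members at or below those levels in a sample were measured with few reads. An exact permutation test of 3 samples against 3 cannot give a p below 0.1.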
